A study of Mus musculus with 8 samples.

Results

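The genes described here are 10 matricellular and wound matrix genes: tenascin C (Tnc), fibronectin (Fn1), the thrombospondins Thbs1, Thbs2 and Thbs4, periostin (Postn), Tgfbi, Sparc, Ccn1 (formerly Cyr61) and Ccn2 (formerly Ctgf). They were taken by symbol from the platform's probe annotation, which assigned 23 of the 45037 tested probe sets to 1 of these genes alone. All 10 were measured, among 18193 genes in all. RNA of mouse corneas was hybridised to 8 one-colour Affymetrix arrays, 4 of corneas from mice overexpressing TGF-beta (TGFB) and 4 of corneas from wildtype litter mates of those mice (wildtype). Both groups were extracted with TRizol. The labels name no TGF-beta isoform, promoter, producing tissue, strain or age. They do not say that each array is a separate animal, so the p-values cover the spread among these arrays alone, and that spread may be of technical origin.

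Matricellular proteins are secreted into the matrix but mostly tune how cells attach and respond to growth factors, and many are scarce in resting tissue and made again in wounds. In the cornea, fibronectin forms the provisional matrix over which epithelium migrates, and tenascin C appears in healing stroma. TGF-beta is a known inducer of most of these genes, and thrombospondin-1 can in turn release TGF-beta from its latent complex. Ccn1 and Ccn2 are immediate-early genes that the YAP and TEAD transcription factors also drive.

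RefSeq promoter sequence of build GRCm38.p6 was at hand for 7 of the 10 genes, in 9 windows. The 250 bases before the transcription start are shown for Tnc, which had the largest difference between the groups, and for Ccn1 and Thbs4, the members whose window holds the TEAD letters. Tnc has a further window with another start, which is not shown. Capitals mark matches to GGAATG, the core of the TEAD motif, on either strand (read as CATTCC on the other), and to TATAAA on the strand shown.
Ccn1 (chr3:145649986-145650235, minus strand): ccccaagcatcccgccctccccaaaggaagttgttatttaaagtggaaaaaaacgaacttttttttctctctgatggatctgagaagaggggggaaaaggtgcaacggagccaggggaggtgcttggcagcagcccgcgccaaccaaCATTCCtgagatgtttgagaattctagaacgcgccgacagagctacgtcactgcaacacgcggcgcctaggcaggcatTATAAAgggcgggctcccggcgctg
Thbs4 (chr13:92794819-92795068, minus strand): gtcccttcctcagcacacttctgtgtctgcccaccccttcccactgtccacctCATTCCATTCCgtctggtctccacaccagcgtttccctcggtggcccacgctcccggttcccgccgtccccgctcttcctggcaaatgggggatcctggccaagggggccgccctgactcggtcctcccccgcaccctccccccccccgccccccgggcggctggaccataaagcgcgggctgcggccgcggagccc
Tnc (chr4:64047016-64047265, minus strand): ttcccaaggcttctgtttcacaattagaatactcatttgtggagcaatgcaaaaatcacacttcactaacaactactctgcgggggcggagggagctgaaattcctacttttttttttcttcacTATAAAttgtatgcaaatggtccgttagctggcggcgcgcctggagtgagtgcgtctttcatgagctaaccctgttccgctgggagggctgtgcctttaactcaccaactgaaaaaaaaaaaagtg
In Thbs4 there are 2 TEAD matches that share a base. GGAATG was in 12.6% of all 32851 promoter windows of this length and TATAAA in 7.59%, while the AP-1 letters TGANTCA, in 6.75%, were in none of the members' windows. The short SMAD element CAGAC or its complement stood in 42.2% of all windows, and in at least 1 window each of Postn, Tnc, Sparc, Tgfbi, Thbs4 and Thbs2. In Tnc it stood only in the window that is not shown. The full SMAD letters GTCTAGAC (0.167% of windows) and the CArG box (1.47%) were in none of the members' windows. These matches describe letters in a short window and nothing of binding.

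The arrays were comparable in scale and mixed in tissue. Each had a 2% trimmed mean of 150, and median signals lay between 26.3 and 34.4. The corneal stroma gene Kera reached signals of 2073 to 4154 on the TGFB arrays and 2538 to 8110 on the wildtype arrays, and Krt12, the keratin of corneal epithelium, 289 to 4551 on the TGFB arrays and 562 to 5766 on the wildtype arrays. The endothelial pump gene Slc4a11 was dim throughout, at 38.1 to 64.9 on TGFB arrays and 38.4 to 108.9 on wildtype arrays. The other endothelium markers measured were brighter. Col8a1 reached 1022 to 3159 on TGFB and 1834 to 4072 on wildtype arrays, and Col8a2 466 to 995 and 352 to 1190. Slc4a4 reached 91.7 to 258 on TGFB and 238 to 721 on wildtype arrays, and Cdh2 102 to 478 and 254 to 380. TGFB 1, TGFB 2 and wildtype 2 carried cornified epidermis transcripts, with all 7 markers measured and summed signals of 38191, 45219.9 and 24637, against 712 to 1551 on the other 5 arrays. Wildtype 4 had the highest 3'/5' ratio, a sign of RNA decay, for both Gapdh (6.41, against 2.88 to 3.55 in TGFB and 2.19 to 4.31 in the other wildtype arrays) and Actb (6.60, against 2.99 to 3.52 in TGFB and 2.19 to 3.61 in the other wildtype arrays). The part of either fact in the members' differences was not tested. The count of members that separate, and the differences of several members, are also given without those arrays.

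Compared with wildtype corneas, TGFB corneas had higher mean levels of 7 of the 10 genes and lower mean levels of Thbs2, Thbs4 and Sparc, but no member passed the test. The fit was limma on log2(signal + 16) with Benjamini-Hochberg adjustment, and a gene was called at an adjusted p under 0.05. Of the 10 members 0 were called higher and 0 lower, where 0% of the 18193 genes were called in either direction. At an unadjusted p under 0.05, Tnc alone stood among the higher genes (2.65% of all genes) and no member among the lower ones (4.42%). The median difference over the members was 0.23 on the log2 scale, beside -0.014 over all genes, and 47.4% of all genes had a higher mean in TGFB. Of the 23 probe sets, 16 had a higher mean in TGFB and 7 a lower one, and probe sets of 1 gene shared their direction for every member. For no member did the 2 groups of 4 arrays separate fully, where 1.49% of all genes did so with TGFB higher and 2.45% with TGFB lower. RNA of whole corneas was measured, so fewer cells of a type and less RNA per cell cannot be told apart.

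**Figure D1:**
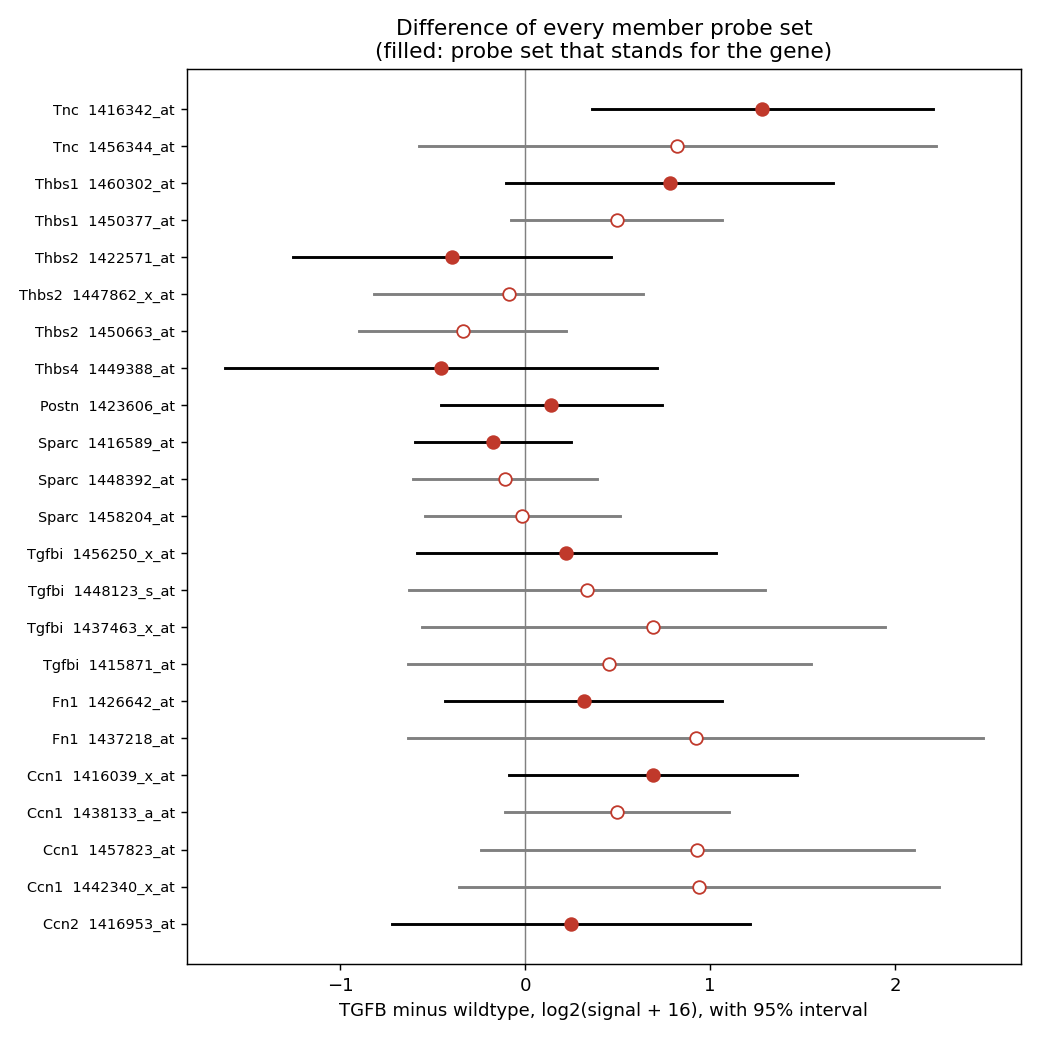
TGFB minus wildtype differences on the log2(signal + 16) scale (x axis) for the 23 probe sets (y axis), with 95% intervals from limma. Filled points are the probe sets that stand for a gene (fit over genes) and open points the others (fit over all probe sets). Of the 23 intervals, that of the brighter Tnc probe set lies wholly above 0.

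Tenascin C, a large glycoprotein that loosens cell attachment to fibronectin, had the largest difference of the 10. Its signals were 659.7, 303, 427 and 548 in TGFB 1 to TGFB 4, against 177, 169, 85.9 and 406 in wildtype 1 to wildtype 4. In all, 3 of 4 TGFB arrays lay above every wildtype array, and TGFB 2 lay above every wildtype array other than wildtype 4. On the log2 scale Tnc was 8.91 ± 0.47 in TGFB and 7.63 ± 0.84 in wildtype corneas (SD, n = 4 each), a difference of 1.28 (SE 0.41, limma adjusted p = 0.659). As a fold this is 2.43, with a 95% interval of 1.28 to 4.61 that is not adjusted for the number of genes. A second, dimmer probe set gave 59.6, 31.8, 66.9 and 88.8 in TGFB, against 0.902, 22.6, 12.7 and 155.8 in wildtype arrays, a difference of 0.82 (SE 0.62, adjusted p = 0.912). It too was lower on wildtype 1, 2 and 3 than on every TGFB array. The Tnc difference was as large among the arrays with cornified transcripts (1.33, 2 TGFB arrays against 1 wildtype array) as among the others (1.30, 2 against 3). Without wildtype 4 it was 1.65 (SE 0.32, adjusted p = 0.119), and without TGFB 2 it was 1.48 (SE 0.43, adjusted p = 0.791), while without wildtype 3 it was 0.96 (SE 0.36, adjusted p = 0.953).

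Fibronectin, the integrin-binding backbone of the provisional wound matrix, separated the TGFB arrays from 3 of the 4 wildtype arrays. Its signals were 5343, 4057, 6110 and 6735 in TGFB, against 3625, 3698, 3063 and 8959 in wildtype arrays. Every TGFB array lay above wildtype 1, 2 and 3 and below wildtype 4. The mean was 12.42 ± 0.32 in TGFB and 12.10 ± 0.70 in wildtype corneas, a difference of 0.32 (SE 0.33, adjusted p = 0.873). The dimmer Fn1 probe set placed the TGFB arrays likewise, with 124.9, 114.2, 319 and 373 in TGFB, against 30.5, 72.2, 74.5 and 485 in wildtype arrays (0.92, SE 0.69, adjusted p = 0.912). Without wildtype 4 the brighter probe set gave 0.66 (SE 0.20, adjusted p = 0.240), and without wildtype 3 it gave 0.15 (SE 0.35).

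Periostin, a collagen-binding protein of fibrous tissue and healing wounds, followed the same arrays. Its signals were 7746, 6945, 8106 and 8569 in TGFB, against 5592, 6185, 5668 and 12818 in wildtype arrays. Again each TGFB array exceeded wildtype 1, 2 and 3, and wildtype 4 exceeded all. The difference was 0.14 (SE 0.26, adjusted p = 0.937), and 0.43 without wildtype 4 (SE 0.13, adjusted p = 0.256). It was 0.029 without wildtype 1, 0.078 without wildtype 2 and 0.036 without wildtype 3. TGFB arrays were close together, with an SD of 0.13 against 0.57 in wildtype arrays.

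The thrombospondins went in different directions. Thbs1, a trimeric activator of latent TGF-beta, was dim, with signals of 55.3, 62.2, 179 and 139.6 in TGFB, against 51.9, 29.2, 39.2 and 98.1 in wildtype arrays. TGFB 3 and TGFB 4 lay above every wildtype array, and TGFB 1 and TGFB 2 between wildtype 1 and wildtype 4. Its difference was 0.78 (SE 0.39, adjusted p = 0.739), which understates the change of a dim gene on this scale, and the second Thbs1 probe set gave 0.49 (SE 0.25, adjusted p = 0.875). Without wildtype 4 Thbs1 differed by 1.04 (SE 0.37, adjusted p = 0.318), and without TGFB 3 by 0.53 (SE 0.38, adjusted p = 0.810).

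Thbs2, the close relative that restrains vessel growth and matrix proteases, had a lower mean in TGFB corneas. Its signals were 1685, 862, 2073 and 2297 in TGFB, against 2299, 1589.6, 1471 and 3870.4 in wildtype arrays. TGFB 2 was the lowest array and wildtype 4 the highest, and the remaining 6 interleaved. The difference was -0.39 (SE 0.38, adjusted p = 0.864), the other 2 probe sets gave -0.34 (SE 0.25) and -0.088 (SE 0.32), and the first was -0.11 without wildtype 4, -0.093 without TGFB 2 and -0.57 without wildtype 3. Thbs4, a pentameric thrombospondin of tendon and muscle, had signals of 1251, 354, 1191.5 and 1881 in TGFB, against 1937, 739.9, 1169.6 and 2149 in wildtype arrays. TGFB 2 was again the lowest and wildtype 4 the highest. Its difference of -0.46 (SE 0.52, adjusted p = 0.882) turned to 0.032 without TGFB 2 (SE 0.37, adjusted p = 0.991), and it was -0.24 without wildtype 4 and -0.75 without TGFB 4. The intervals leave room for changes either way, from 0.420 to 1.38-fold for Thbs2 and from 0.325 to 1.64-fold for Thbs4.

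Tgfbi, an adhesion protein of the corneal stroma that is named for its induction by TGF-beta and mutated in human corneal dystrophies, spread widely among TGFB corneas. Its signals were 2605, 1335, 3400.0 and 4700.0 in TGFB, against 2169.6, 2157, 1952 and 3274 in wildtype arrays. TGFB 3 and TGFB 4 were the highest of the 8 arrays and TGFB 2 the lowest. The mean was 11.42 ± 0.77 in TGFB and 11.20 ± 0.33 in wildtype corneas, a difference of 0.22 (SE 0.36, adjusted p = 0.930). The other 3 probe sets, with differences of 0.34, 0.46 and 0.69 (SE 0.43, 0.48 and 0.56), gave the same lowest array and the same 2 highest. Among arrays with cornified transcripts the difference was -0.21, and among the others 0.73, where both TGFB arrays lay above the 3 wildtype arrays (SE 0.29, adjusted p = 0.892). It was -0.037 without TGFB 4 and 0.56 without TGFB 2. Of the other settings tried, 1 turned its direction (without TGFB 4) and 18 kept it.

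Sparc, a collagen-binding protein that rounds cells up and guides fibril assembly, varied least over the 8 arrays. Its signals were 5656, 4452, 4815 and 5744 in TGFB, against 7459, 5219.7, 6468 and 4479.9 in wildtype arrays. Wildtype 1 and wildtype 3 lay above every TGFB array, while TGFB 2 and wildtype 4 were almost level at the low end. The difference was -0.17 (SE 0.19, adjusted p = 0.874), with a 95% interval of 0.661 to 1.19-fold. It was -0.053 without wildtype 1, -0.10 without TGFB 2 and -0.30 without wildtype 4. A second bright probe set gave -0.11 (SE 0.22) but another order of arrays, with wildtype 3 lowest (2929) and wildtype 4 highest (5403). The third, at signals of 7.03 to 28.1, gave -0.014 (SE 0.23). Unlike Fn1, Postn, Thbs2 and Thbs4, Sparc was not at its highest on wildtype 4 in the probe set that stands for the gene.

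The CCN proteins, short-lived cysteine-rich signals at the cell surface, gave higher means in TGFB corneas. Ccn1, which promotes adhesion and later senescence of wound fibroblasts, had signals of 549.5, 363, 924 and 1109 in TGFB, against 472, 303, 366 and 543 in wildtype arrays. In all, 3 TGFB arrays lay above every wildtype array and TGFB 2 above wildtype 2 alone. The difference was 0.69 (SE 0.34, adjusted p = 0.737), a fold of 1.62 with a 95% interval of 0.943 to 2.77. The other 3 probe sets gave 0.50, 0.93 and 0.94 (SE 0.27, 0.52 and 0.58), with adjusted p between 0.887 and 0.898. The 4 probe sets measure 1 gene and are not separate evidence. Without TGFB 4 Ccn1 differed by 0.46 (SE 0.33, adjusted p = 0.843), and without wildtype 4 by 0.82. Without TGFB 2 it differed by 0.98 (SE 0.29, adjusted p = 0.791), and with the cornified arrays as a block, a fit added after the values were seen, by 0.92 (SE 0.22, adjusted p = 0.485).

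Ccn2, a mediator of fibrosis and a standard readout of TGF-beta signals in fibroblasts, had signals of 1640.4, 756, 2854 and 3200.3 in TGFB, against 2178, 1299.8, 1217 and 1659.5 in wildtype arrays. TGFB 3 and TGFB 4 were the highest arrays and TGFB 2 the lowest. Its difference was 0.25 (SE 0.43, adjusted p = 0.933). Among arrays with cornified transcripts it was -0.22 and among the others 0.88 (SE 0.28, adjusted p = 0.890), and without TGFB 4 it was -0.019, without TGFB 3 0.036, without wildtype 1 0.41 and without TGFB 2 0.67.

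**Figure D2:**
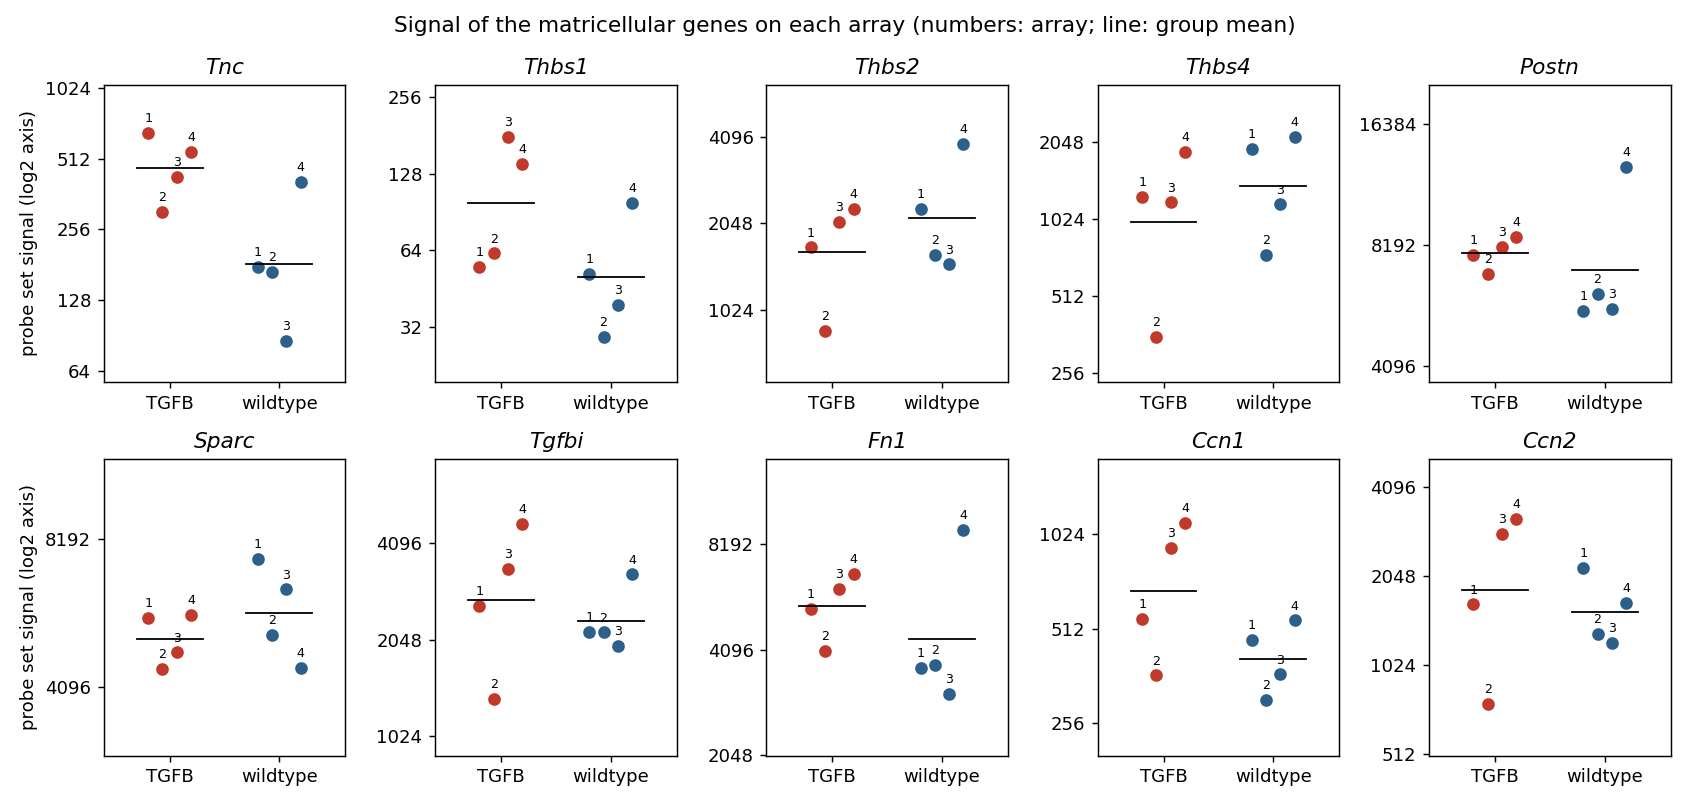
Signals of the probe set that stands for each of the 10 genes (y axis, log2 scale) on the 4 TGFB (red, left) and 4 wildtype (blue, right) arrays, numbered by array, with a line at the group mean taken on the log2(signal + 16) scale. Wildtype 4 is the highest array for Thbs2, Thbs4, Postn and Fn1, and TGFB 2 the lowest for Thbs2, Thbs4, Sparc, Tgfbi and Ccn2.

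Several members shared an order of arrays that did not follow the groups. TGFB 2 was the lowest array for 5 of the 10 genes, where it was the lowest for 16.4% of all genes, and wildtype 4 was the highest for 4, where it was so for 18.0% of all genes. The mean over the 10 members was 10.56, 9.84, 10.86 and 11.08 in TGFB 1 to 4, against 10.41, 9.98, 9.97 and 10.90 in wildtype 1 to 4 (log2 scale). TGFB 4, wildtype 4 and TGFB 3 were highest, and TGFB 2, wildtype 2 and wildtype 3 lowest. A list of 9 tendon and cartilage genes had the same 3 highest and the same 3 lowest arrays, with means of 7.69, 7.24, 7.92 and 8.27 in TGFB, against 7.59, 7.23, 7.17 and 8.23 in wildtype arrays. Its summed signals ran from 6135 to 14875 over TGFB arrays and from 4514 to 21936 over wildtype arrays. All 9 of its genes were measured, of which the cartilage matrix gene Matn1 stayed under a signal of 16 on every array. The tendon gene Tnmd reached 1891 to 5397 on TGFB arrays and 2056 to 9762 on wildtype arrays.

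A list of TGF-beta pathway genes had those 3 highest and 3 lowest arrays as well, and in this list, the tendon and cartilage list and the members they stayed the same with any 1 gene left out. Other related lists did not share these arrays. Further matricellular genes and receptors averaged highest on wildtype 1 (7.76 and 7.92). Immediate-early genes averaged highest on TGFB 1 (8.46), and targets of YAP or the serum response factor on wildtype 2 (9.26). The 11 measured pathway genes averaged 8.83 to 9.47 on TGFB arrays and 8.87 to 9.42 on wildtype arrays. The platelet and macrophage list, measured for all 9 genes, averaged 7.39 to 7.91 on TGFB arrays and 7.05 to 7.99 on wildtype arrays, with summed signals of 3640.2 to 5281 on TGFB arrays and 3048 to 5331 on wildtype arrays. It had the same 3 highest and 3 lowest arrays only with the platelet basic protein gene Ppbp, whose signals were 193, 39.1, 2395 and 2555 in TGFB, against 35.3, 24.9, 22.6 and 1037 in wildtype arrays. Without Ppbp the other 8 genes averaged 7.64, 7.59, 7.24 and 7.48 in TGFB, against 7.88, 7.39, 7.27 and 7.74 in wildtype arrays, with TGFB 3 lowest and wildtype 1 highest. Without the monocyte gene Cd14, TGFB 1 took the place of TGFB 3 among the 3 highest. Pf4, the platelet factor 4 gene, had signals of 1051, 1137, 504 and 517 in TGFB, against 1140.4, 1260.3, 1061 and 489 in wildtype arrays, and was thus lowest on the arrays where Ppbp was highest (-0.31, SE 0.37, adjusted p = 0.894). The macrophage gene Adgre1 had 191, 185, 104 and 129 in TGFB, against 262, 222, 282 and 431 in wildtype arrays, and the groups did not overlap, with TGFB lower (-0.90, SE 0.25, adjusted p = 0.639). The platelet gene Gp9 never exceeded 4.61. For the tissue lists, the directions of the gene means and the median differences follow, and no list was tested. All 8 corneal stroma genes had lower means in TGFB, with a median difference of -0.44. Their summed signals did not overlap, at 19282 to 23718 on TGFB arrays and 24276 to 36609 on wildtype arrays. Their mean log2 values did overlap, at 10.20 to 10.99 on TGFB arrays and 10.86 to 11.34 on wildtype arrays. Dcn was the only 1 of the 8 genes whose groups did not overlap, where 2.45% of all genes did so with TGFB lower. All 8 pigment genes had lower means in TGFB too, with a median of -1.65 and summed signals of 3149 to 14637 on TGFB arrays and 14320.3 to 31254 on wildtype arrays. The medians were -1.08 for lens, with 7 of 7 measured genes lower, -0.19 for skeletal muscle, with 9 of 9 lower, -0.22 for corneal endothelium, with 5 of 5 lower, and 1.63 for cornified epidermis, with 7 of 7 higher. They were -0.34 for corneal epithelium, -0.16 for vessel, 0.040 for tendon and cartilage and 0.016 for platelet and macrophage genes, with genes in both directions. Groups also did not overlap, with TGFB lower, for the pigment genes Tyrp1 and Oca2, the muscle gene Pvalb and the epithelial gene Tkt. The epithelial gene Krt14 was higher in TGFB without overlap, where 1.49% of all genes were. Lens transcripts varied widely within both groups, with summed signals of 54.0 to 13948 on TGFB arrays and 133 to 20000 on wildtype arrays. Summed muscle signals were high on every array, at 15783 to 26662 on TGFB arrays and 20782 to 27347 on wildtype arrays. No gene of these lists was called, and the part of these transcripts in the members' differences was not tested.

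**Figure D3:**
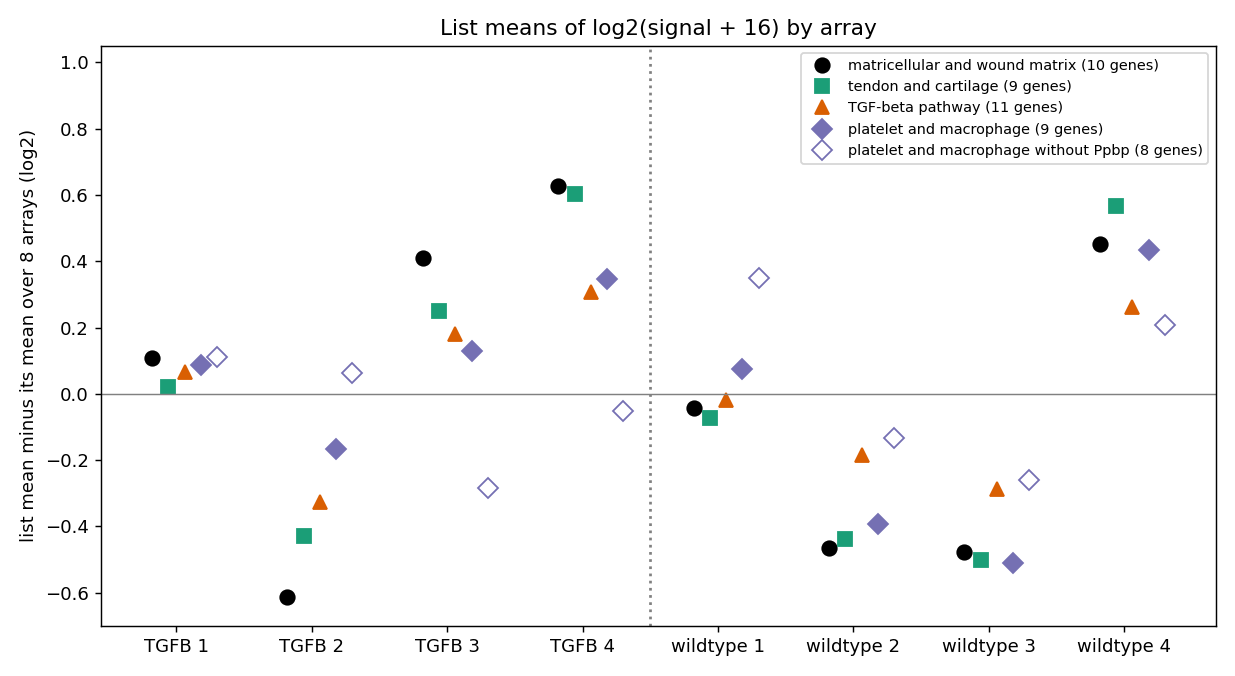
Mean of log2(signal + 16) over the genes of 4 lists on each array (x axis), minus that list's mean over the 8 arrays (y axis, log2), with TGFB arrays on the left. The matricellular and wound matrix genes, the tendon and cartilage list and the TGF-beta pathway list lie highest on TGFB 3, TGFB 4 and wildtype 4 and lowest on TGFB 2, wildtype 2 and wildtype 3, as does the platelet and macrophage list with Ppbp (filled diamonds) but not without it (open diamonds, TGFB 3 lowest).

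Leaving out arrays changed which members separated. Without wildtype 4, Tnc, Thbs1, Postn and Fn1 were higher on all 4 TGFB arrays than on the 3 wildtype arrays that remained, 4 of 10 genes where 4.77% of all genes separated in this direction. None separated the other way, where 7.68% of all genes did. Without TGFB 1, TGFB 2 and wildtype 2, the arrays with cornified transcripts, 5 of 10 members separated with TGFB higher (Tnc, Thbs1, Tgfbi, Ccn1 and Ccn2), where 10.5% of all genes did. Their differences there were 1.30, 1.21, 0.73, 1.13 and 0.88, with adjusted p between 0.828 and 0.892. Without TGFB 2 alone, Tnc and Ccn1 separated, where 2.86% of all genes did so in this direction. Ccn1 did so narrowly, with 549.5 on TGFB 1 against 543 on wildtype 4. The dimmer Tnc probe set and the dimmest Ccn1 probe set overlapped without TGFB 2, and also without the 3 arrays with cornified transcripts. With any other single array left out 0 of 10 members separated in either direction, where 2.34% to 3.18% of all genes did with TGFB higher and 3.37% to 4.1% with TGFB lower. In none of these settings was a member called.

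**Figure D4:**
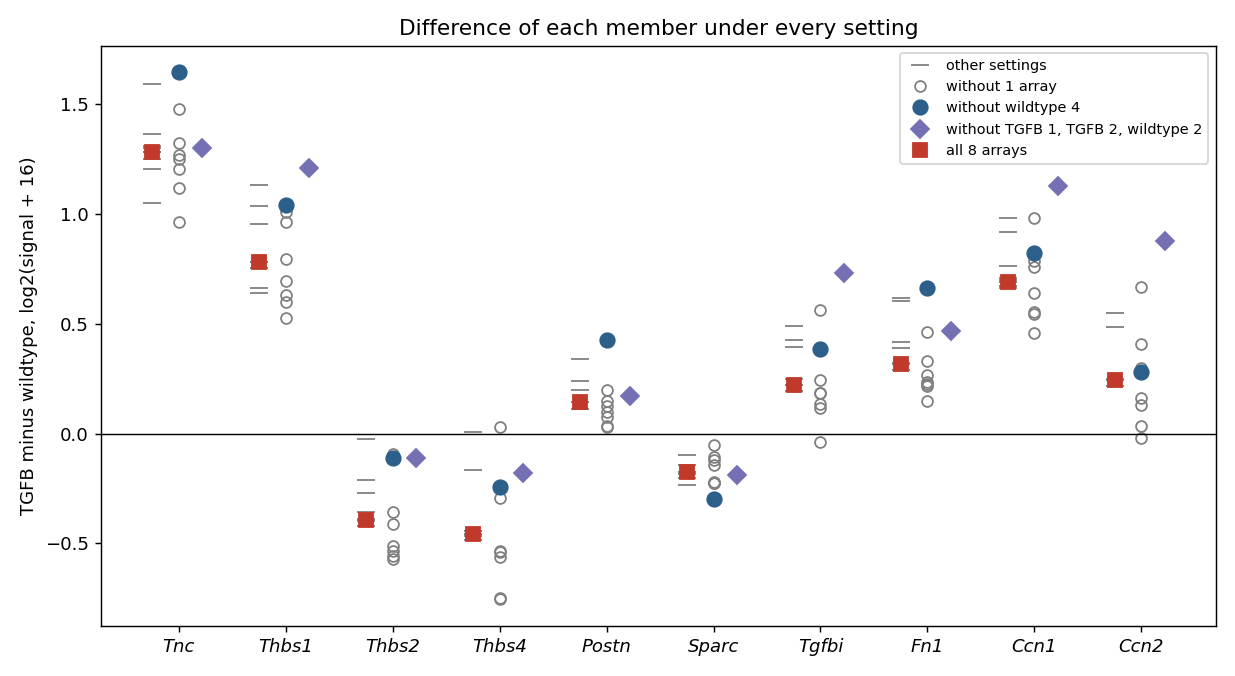
TGFB minus wildtype difference of each member (y axis, log2(signal + 16)) with all 8 arrays (red squares), under other processing settings (grey dashes), without 1 array (circles, wildtype 4 filled in blue) and without the 3 arrays with cornified transcripts (purple diamonds). Tnc stays between 0.96 and 1.65, while Thbs4, Tgfbi and Ccn2 cross 0.

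Other genes around the members gave no call either, where again 0% of all genes passed. Of 19 further matricellular genes measured, 9 had higher and 10 lower means in TGFB corneas, with a median difference of -0.038. Among them Lgals3, the galectin-3 gene of wounded epithelium, had signals of 2824, 4422, 1965 and 2217 in TGFB, against 1165, 1657, 599 and 1802 in wildtype arrays, and the groups did not overlap (1.16, SE 0.37, adjusted p = 0.661). The anti-adhesive Sparc relative Sparcl1 gave 0.69 (SE 0.38, adjusted p = 0.768) and the insulin-like growth factor binding protein Igfbp7 -0.39 (SE 0.23, adjusted p = 0.778). Of 20 receptors of these proteins, 12 had higher and 8 lower means, with a median of 0.044. The laminin-binding integrin chains Itga6 (0.64, SE 0.25) and Itgb4 (0.34, SE 0.20) and the TGF-beta activating chain Itgb8 (-0.91, SE 0.41) had the smallest p, with adjusted p between 0.677 and 0.783.

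Genes that respond to the same inputs differed from list to list. Of 18 immediate-early genes, the class that Ccn1 belongs to, 17 had higher means in TGFB corneas, with a median of 0.30. Their list mean did not overlap between the groups, at 8.05 to 8.46 on TGFB arrays and 7.46 to 8.02 on wildtype arrays. Nor did their summed signals, at 7467 to 10150 on TGFB arrays and 5020 to 7402 on wildtype arrays. The list was not tested. The transcription factor Egr2 did not overlap, at 284.5, 177.5, 158 and 214.5 in TGFB, against 63.7, 120.3, 37.1 and 75.8 in wildtype arrays (1.37, SE 0.29, adjusted p = 0.623). Fos (0.78, SE 0.24) and Ier2 (0.58, SE 0.23) overlapped, with adjusted p of 0.639 and 0.680. Of 18 further targets of YAP or of the serum response factor Srf, 8 had higher and 10 lower means, with a median of -0.088. Srf itself gave 0.48 (SE 0.23), Dlc1 -0.41 (SE 0.15) and the contractile gene Cnn1 -1.40 (SE 0.54), with adjusted p between 0.673 and 0.717. The groups did not overlap for Dlc1, with TGFB lower. Of the 11 TGF-beta pathway genes measured, 6 had higher and 5 lower means, with a median of 0.043, and the smallest adjusted p, 0.687, was that of Smad2 (0.45, SE 0.19). Tgfb1 gave 0.36 (SE 0.25), Tgfb2 -0.10 (SE 0.28) and Tgfb3 0.10 (SE 0.31).

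The genes whose pattern over the 8 arrays lay nearest to a member were found among 8192 genes with a mean log2 value of 7 or more, by the root mean square difference of log2 values after each gene's mean was taken off. Nearest to Tnc were Chil1 (0.217) and the latent TGF-beta binding protein Ltbp2 (0.347), where Tnc itself varied by 0.871. Chil1, a chitinase-like glycoprotein, had signals of 487, 375, 454 and 528 in TGFB, against 150.9, 199, 85.2 and 430.1 in wildtype arrays, a difference of 1.24 (SE 0.39, adjusted p = 0.650). Like Tnc, it had wildtype 3 as its lowest array and wildtype 4 as the highest wildtype array. Nearest to Tgfbi were Chd1 (0.170) and the cartilage collagen Col2a1 (0.125), where Tgfbi varied by 0.523. Col2a1 had signals of 116, 77.4, 181 and 246 in TGFB, against 104, 108, 92.9 and 183 in wildtype arrays. Thbs1 lay nearest to Atp10d (0.189) and Ier3 (0.226), Thbs2 to Abi3bp (0.130) and Gfpt2 (0.175), and Thbs4 to Chst5 (0.172), the sulfotransferase of corneal keratan sulfate, and Smpdl3a (0.313). Ccn1 lay nearest to the oncostatin M receptor gene Osmr (0.158) and the growth factor gene Hbegf (0.221), and Ccn2 to Hif1a (0.240) and Pik3r3 (0.248). Fn1 lay nearest to Fkbp1b (0.115) and Cbfb (0.133), Postn to Psmb3 (0.0817) and Dsel (0.0926), and Sparc to Map3k5 (0.0849) and Pomgnt2 (0.0879). With 8 arrays and this many genes, a near pattern is a description of these arrays.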

How the data were processed

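The authors deposited linear probe set intensities for 8 arrays, but how those were made is not stated in the labels or the file. They show an equal 2% trimmed mean on every array, and were used without further scaling, as log2(signal + 16), while the 64 control probe sets were left out. A platform annotation of 2016 gave 1 symbol to 34945 probe sets and several to 932, with 9160 not named here, and Entrez IDs matched 34741 to RefSeq symbols. A probe set assigned to Thbs1 together with another gene was left out. The brightest probe set over all arrays stood for each gene.

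TGFB was tested against wildtype with limma 3.58.1 (R 4.3.3), two-sided, with Benjamini-Hochberg adjustment over 18193 genes, and every probe set in a fit over 45037. The fit was tested on simulated data. The number of arrays limits the precision.

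The members and lists were chosen with earlier results of these data known. Named were the 10 members, the 3 genes of smallest p in lists of related genes, Tgfb1, Tgfb2 and Tgfb3, tissue markers, and the 2 genes nearest each member. The other settings were quantile normalization, median centring, offsets of 1 and 32, probe sets above the 40th percentile alone, gene means over probe sets, all probe sets as units, a variance trend, array weights, leaving out each array or the 3 cornified arrays and, added later, those arrays as a block. List means by array with each gene left out were also added later.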

Additional observations from a re-analysis of the deposited data

Results flagged for a closer look

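Of 46 groups of 4 arrays examined over the 23 probe sets, 2 had an array far from the other 3 by Dixon's criterion, where chance gives about 1 in 20. Both were wildtype 4. Its Postn signal was 12818, and its signal in the dimmer Thbs1 probe set was 52.1, each the highest of the wildtype arrays.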

How the results depend on the processing

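No member was called in any of the 19 settings tried besides the one reported, and the median difference of the members stayed above 0 in all of them. With 1 array left out the median lay between 0.040 (TGFB 4 left out) and 0.51 (TGFB 2 left out), and in the other settings between 0.21 and 0.60. The count of called genes ran from 0 to 2 with 1 array left out, the 2 being lower genes called without wildtype 4, where 818 higher and 1484 lower genes had an unadjusted p under 0.05, and it was 0 in every other setting. Ccn1, Fn1, Postn, Sparc, Thbs1, Thbs2 and Tnc kept their direction in all 19 settings. With 1 array left out, Ccn2 lay between -0.019 (TGFB 4 left out) and 0.67, Tgfbi between -0.037 (TGFB 4) and 0.56, and Thbs4 between -0.75 and 0.032 (TGFB 2), and array weights turned Thbs4 to 0.0066. The cause was not tested. Over all settings the adjusted p of Tnc ran from 0.119 to 0.953. No paired analysis was possible because the labels give no replicate numbers that the groups share. The dim Thbs1 probe sets limit what its difference can show, and in Fn1 and Postn wildtype 4 lay far above the other 3 wildtype arrays.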
